A study of Mus musculus with 6 samples.

Results

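Neurexins, neuroligins and LRRTM proteins are the adhesion proteins that join the sending and the receiving side of a synapse. The count table was searched for 9 of their genes by symbol: the neurexins Nrxn2 and Nrxn3, the neuroligins Nlgn1, Nlgn2 and Nlgn3, and the leucine-rich repeat transmembrane genes Lrrtm1, Lrrtm2, Lrrtm3 and Lrrtm4. All 9 were found among its 43346 genes. The libraries came from cortical cells of fetal mice, taken at gestational day 15.5, labelled SRY+ (male) and grown in primary culture. Vehicle cultures had received DMSO, and treated cultures had received 10HDA at 1 mM. 10HDA is a fatty acid found in royal jelly. There were 3 libraries per treatment, and cultures 1, 3 and 4 each gave 1 vehicle and 1 10HDA library. The labels give Cyp19-EGFP as the strain of every library, a line with a transgene in which the aromatase gene drives a green fluorescent protein, whereas C57BL/6 embryos are named in the methods. How many fetuses were pooled into a culture is not given in the sources used here.

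The libraries held 9144736 to 13367194 counts, of which the 9 genes took 12338 to 20185. Levels are in CPM, counts divided by the size of the library after scaling between libraries. By the unscaled totals, 3 counts correspond to 0.224 to 0.328 CPM, a limit that covers counting error only. Both libraries of culture 1 stood apart in their Y-linked genes, although all were labelled SRY+. By the unscaled totals, 4 such genes summed to 8.83 and 9.41 CPM there, against 90.0 to 131 CPM in the other libraries. The fold changes of the members and of the pathway lists are therefore also given without culture 1. Neuronal markers were abundant, with Map2 at 1979 ± 299 CPM (SD, n = 3) in vehicle cultures. All 6 microglial markers were under 1 CPM in all libraries, and Tmem119 had 0 counts in the 6 libraries. Because each library is the RNA of a whole culture, fewer cells of a type and less RNA per cell cannot be told apart.

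Neurexins sit in the presynaptic membrane, and a gene can be read from several promoters into long alpha and shorter beta forms that are further varied by splicing. Across the cleft they bind neuroligins and LRRTMs, which sit in the postsynaptic membrane. Neuroligin-1 is known mainly from excitatory synapses, neuroligin-2 from inhibitory synapses and neuroligin-3 from both kinds, while the LRRTMs are known from excitatory synapses. In the cortex these proteins organise synapses once axons and dendrites have made contact, and variants in several of their genes have been linked to autism. The study concerned autism-related mouse phenotypes and their treatment with 10HDA.

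Members of a family are paralogs, so it matters whether reads of 50 bases can be assigned to a single gene. The ends of their coding sequences are shown because they encode the intracellular ends, by which neurexins and neuroligins bind PDZ proteins of the synapse. Each line gives the last 48 bases of the longest coding sequence of the gene (GENCODE release M21, GRCm38, 5′ to 3′ on the strand of the gene), with the last 4 codons and the stop codon in capitals. The stretches lie at chr19:6532101-6532148 (plus strand), chr12:90332363-90332410 (plus), chr3:25433638-25433685 (minus), chr11:69825203-69825250 (minus), chrX:101320215-101320262 (plus), chr6:77245083-77245130 (plus), chr10:63930058-63930105 (minus) and chr6:80809142-80809189 (plus), in the order of the lines.
Nrxn2: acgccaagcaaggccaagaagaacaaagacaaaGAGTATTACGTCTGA
Nrxn3: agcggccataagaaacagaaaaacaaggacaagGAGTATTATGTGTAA
Nlgn1: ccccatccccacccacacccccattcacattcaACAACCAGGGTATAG
Nlgn2: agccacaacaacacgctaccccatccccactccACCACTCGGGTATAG
Nlgn3: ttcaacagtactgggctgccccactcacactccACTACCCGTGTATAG
Lrrtm1: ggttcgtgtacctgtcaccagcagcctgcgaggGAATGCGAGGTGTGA
Lrrtm3: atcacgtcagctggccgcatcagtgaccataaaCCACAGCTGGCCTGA
Lrrtm4: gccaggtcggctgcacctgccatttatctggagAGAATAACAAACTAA

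The neurexin ends were identical at 30 of 48 bases, and at 12 of the 15 bases in capitals. Each pair of neuroligins shared 12 of the 15 bases in capitals, and 27 to 32 of all 48. The ends of Lrrtm1, Lrrtm3 and Lrrtm4 were less alike, with 11 to 20 identical bases of 48 and 3 to 6 of the 15 in capitals, and Lrrtm2 was not part of this comparison.

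No pair of the 9 genes shared a 50-base stretch anywhere in their annotated transcripts, on either strand (0 shared). The longest runs of identical coding bases were 23 bases in the neurexins (for Nrxn2 at chr19:6472390-6472412, plus strand), 23 bases in Nlgn1 and Nlgn3 (for Nlgn1 at chr3:25436354-25436376, minus strand), 23 bases in Nlgn2 and Nlgn3 (for Nlgn2 at chr11:69826756-69826778, minus strand) and 19 bases in Lrrtm3 and Lrrtm4 (for Lrrtm3 at chr10:64088515-64088533, minus strand). They are shown as the longest exact matches between coding sequences of paralogs, and stretches alike but for scattered mismatches were not searched. Nrxn2 and Nrxn3 shared 2 runs of this length, as did Nlgn2 and Nlgn3, and only the first in alphabetical order is shown.
Nrxn2 and Nrxn3: agcaacaacttcatgggctgcct
Nlgn1 and Nlgn3: ggagagttcctcaactatgatat
Nlgn2 and Nlgn3: gtcatgacctattggaccaactt
Lrrtm3 and Lrrtm4: tggattccaacaagctcac

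Stretches shared with genes outside the families were more common. Of the 50-base stretches of Nlgn3, 40.9% also occurred in another gene, and 40.4% in Gm21986, a processed transcript on the same strand that overlaps it, so that reads there cannot be assigned to either gene with certainty. Gm21986 itself held 5 to 19 counts per library. For Lrrtm4 the share was 24.0%, with the antisense gene Gm4409 (0 counts in the 6 libraries), and for Nlgn1 it was 8.77%, with the antisense gene A830092H15Rik. It was 5.29% for Nrxn2 (most with Slc22a12), 3.04% for Nrxn3 (with Gm37980) and 0.76% for Lrrtm2 (with Ctnna1), all 3 partners on the opposite strand. It was 0 for Nlgn2, Lrrtm1 and Lrrtm3. The search covered annotated transcripts and not introns. The 0 for Lrrtm1 and Lrrtm3 therefore leaves out the introns of the alpha-catenin genes Ctnna2 and Ctnna3, in which they lie on the opposite strand. The libraries were made with a strand-specific kit, but whether strand was used in counting is not given in the sources used here. Values of members with a gene on the opposite strand, inside or around them, are uncertain to that extent.

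Levels were compared between genes as CPM per kilobase of exon, so that long transcripts do not appear more abundant. In vehicle cultures Nlgn2, the neuroligin of inhibitory synapses, was the highest of the 9 at 79.9 ± 4.36 (SD, n = 3), followed by Nrxn2 at 47.5 ± 6.14 and Lrrtm1 at 22.5 ± 0.83. Nlgn3 stood at 14.1 ± 1.18. These 4 genes held the same order in all 6 libraries. The level of Nlgn3 was divided by all of its 9271 exon bases, of which 3823 are shared with Gm21986. Reads from those bases may be missing from its count, so its place below Lrrtm1 is uncertain. Lower down were Lrrtm2 at 7.45 ± 0.94, Nrxn3 at 7.12 ± 0.94, Nlgn1 at 5.20 ± 1.01 and Lrrtm3 at 4.97 ± 0.19. Neighbours among these 4 were within their spread, since Lrrtm2 exceeded Nrxn3 in only 3 of 6 libraries, Nrxn3 exceeded Nlgn1 in 5 and Nlgn1 exceeded Lrrtm3 in 5. Lrrtm4 was the lowest in every library, at 1.34 ± 0.31 in vehicle cultures. With 10HDA the order of the means was the same, from 74.4 ± 2.64 for Nlgn2 and 41.2 ± 1.80 for Nrxn2 down to 3.85 ± 0.34 for Lrrtm3 and 1.33 ± 0.25 for Lrrtm4.

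**Figure D1:**
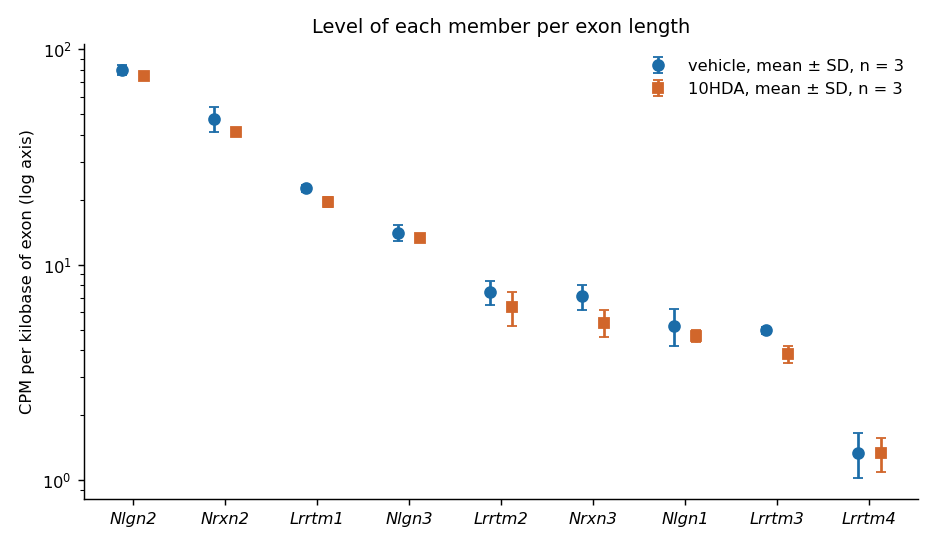
Level of each of the 9 genes in CPM per kilobase of exon (log axis), as mean ± SD over 3 vehicle libraries (circles) and 3 10HDA libraries (squares). Nlgn2 and Nrxn2 lead and Lrrtm4 is lowest, and the order of the means is the same in both treatments.

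The comparison asked whether transcripts of these adhesion proteins differed between 10HDA and vehicle cultures. A gene was tested where 3 or more libraries reached 10 CPM, which kept 8 of the 9 members, and Lrrtm4 lay below that level. All 8 had a lower fitted level with 10HDA. Their log2 fold changes ranged from -0.40 for Nrxn3 to -0.090 for Nlgn3, and the median was -0.21. Over the 10520 genes tested the median was -0.0095, and 52.1% had a fold change below 0. None of the 8 passed an adjusted p of 0.1 in edgeR's quasi-likelihood test without a culture term, and none did in DESeq2 or limma-voom (0 called in each). In that test 0.627% of all genes were called, 0.428% lower and 0.2% higher. At an unadjusted p under 0.05, 2 of the 8 members were lower (Nrxn3 and Lrrtm3), against 10.1% of all genes in either direction and 5.67% lower.

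The labels pair the libraries by culture, and a fit with culture as a block sets each 10HDA library against the vehicle library of its own culture. In that fit Nrxn3 and Lrrtm3 were lower past the threshold, 2 of 8 members, where 8.98% of all genes were called, 5.08% lower and 3.91% higher. Of the 8 members, 6 were lower with 10HDA in 3 of 3 cultures, against 21% of all genes (18.6% were higher in 3 of 3). For 3 members, Nrxn3, Lrrtm1 and Lrrtm3, every 10HDA library was below every vehicle library. These counts depend on the scaling: by library size alone 4 members were lower in 3 of 3 cultures (Nrxn2, Nrxn3, Lrrtm1 and Lrrtm3), and the treatments were separate for Lrrtm1 and Lrrtm3 but overlapped for Nrxn3. After scaling between libraries, such separation was seen for 7.44% of all genes in this direction, for 5.96% in the other and for 13.4% in either. Shares over all genes by library size alone were not computed, so the counts on that scale have no share beside them.

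Summed over the 9 genes, vehicle libraries of cultures 1, 3 and 4 held 1422, 1561 and 1660 CPM, and 10HDA libraries held 1327, 1404 and 1384 CPM, so the treatments did not overlap in the sum. By library size alone they did, at 1385, 1510 and 1529 CPM against 1343, 1438 and 1349 CPM. Most of it is Nrxn2 and Nlgn2. By culture, the median log2 fold change of the 8 tested members was -0.11 in culture 1, -0.24 in culture 3 and -0.23 in culture 4, each against medians over all genes of -0.016 to -0.0022. Without culture 1 and without a culture term the median was -0.24, and only 2 of 10234 genes were called, neither of them a member. The log2 fold changes without culture 1 were -0.23 for Nrxn2, -0.44 for Nrxn3, -0.25 for Nlgn1, -0.10 for Nlgn2, -0.059 for Nlgn3, -0.16 for Lrrtm1, -0.28 for Lrrtm2 and -0.31 for Lrrtm3. The pathway lists then had medians of -0.13 (extracellular ligands), -0.16 (other adhesion organisers), -0.15 (intracellular partners), 0.11 (proteases), -0.061 (splice regulators) and -0.056 (host genes).

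**Figure D2:**
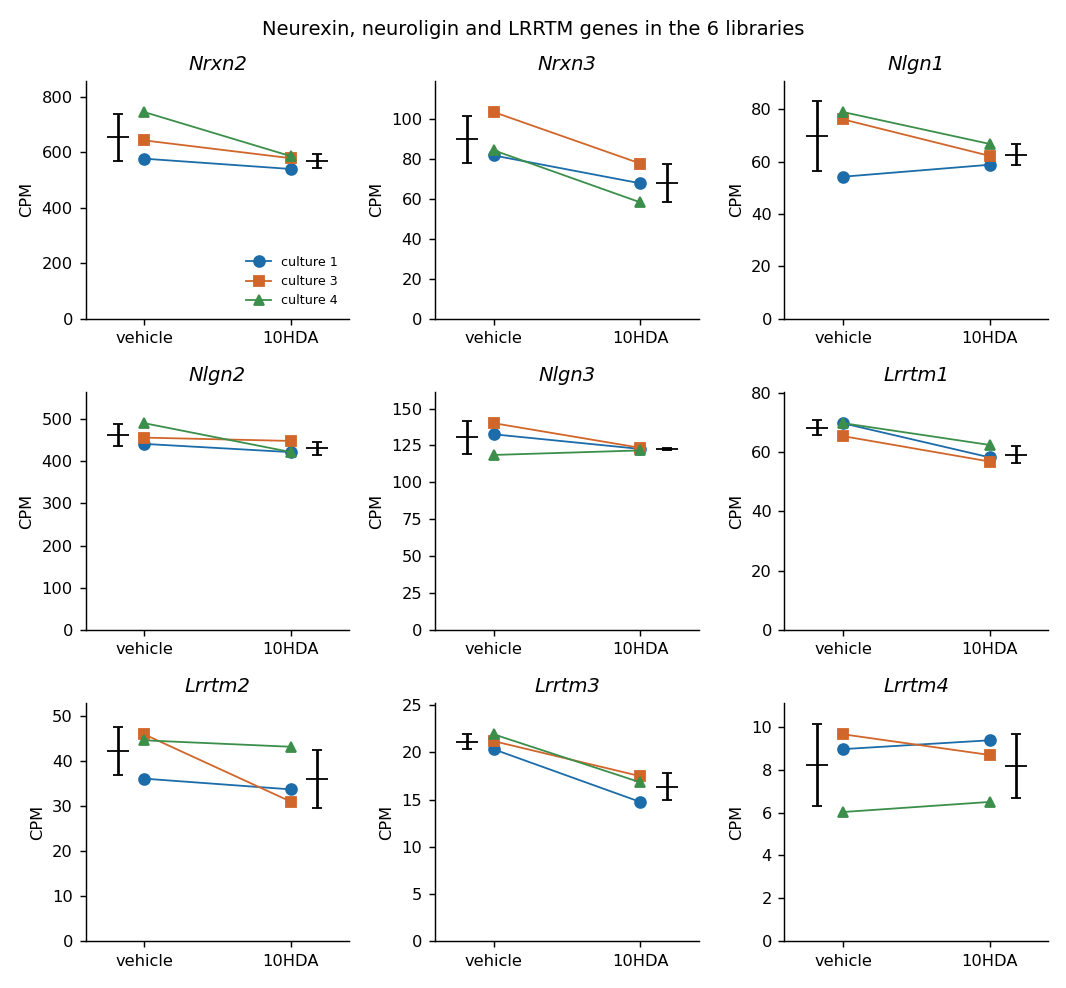
CPM of each member in the 6 libraries, with vehicle on the left and 10HDA on the right of each panel, a line joining the libraries of 1 culture and bars for mean ± SD (n = 3). Every 10HDA point lies below every vehicle point for Nrxn3, Lrrtm1 and Lrrtm3 (for Nrxn3 not by library size alone), and the groups overlap for the other 6 genes.

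Nrxn3 had the largest difference of the neurexins. The gene spans 1612.1 kb of chr12:88722876-90334935 on the plus strand, with 29 merged exons and 4 annotated coding starts. In vehicle cultures 1, 3 and 4 it stood at 81.7, 103 and 84.3 CPM, and with 10HDA at 67.7, 77.6 and 58.2 CPM. On this scale all 10HDA libraries were below all vehicle libraries, and culture 4 had the lowest 10HDA value. The fitted level with 10HDA was 0.757 times that with vehicle, a log2 fold change of -0.40 ± 0.13 (SE; 95% interval -0.69 to -0.11), with an adjusted p of 0.34 in the edgeR fit without a culture term. With culture as a block the change was -0.40 ± 0.10 with an adjusted p of 0.014. It measured -0.27, -0.41 and -0.53 within cultures 1, 3 and 4. The blocked adjusted p was 0.0084 without culture 1 and 0.010 without culture 3, but 0.30 without culture 4, where the change was -0.34.

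Nrxn2 was the most abundant of the 9 genes in CPM, at chr19:6418731-6544169 on the plus strand, where 125.4 kb hold 28 merged exons. Vehicle libraries of cultures 1, 3 and 4 had 577, 643 and 746 CPM, and 10HDA libraries had 540, 579 and 586 CPM. Each 10HDA value was below the vehicle value of its own culture, but the groups overlapped, since 2 of the 10HDA libraries (cultures 3 and 4) exceeded the vehicle library of culture 1. The log2 fold change was -0.21 ± 0.11 (SE; 95% interval -0.46 to 0.046, adjusted p = 0.56), and the adjusted p with culture as a block was 0.24. Within cultures 1, 3 and 4 the differences were -0.096, -0.15 and -0.35. Leaving out the vehicle library of culture 4 brought the fold change to -0.084.

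Whether the balance of the neurexins differed was asked from the log2 ratio of Nrxn3 to Nrxn2 in each library. It averaged -2.87 ± 0.26 (SD, n = 3) with vehicle and -3.08 ± 0.23 with 10HDA, a difference of -0.21 that did not pass (two-sided exact permutation test, p = 0.4, where 0.1 is the smallest that 3 against 3 allows). The ratio was lower with 10HDA in each culture, by log2 differences of -0.17, -0.26 and -0.19. Its mean difference was -0.079, -0.092 and -0.35 when the culture 4 10HDA library, the culture 3 vehicle library or the culture 4 vehicle library was left out.

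The neuroligins showed the smallest differences, and the median over the 3 genes was -0.10 on the log2 scale. Nlgn1, at chr3:25426215-26332460 on the minus strand, had 54.2, 76.1 and 78.9 CPM with vehicle and 58.8, 62.2 and 66.7 CPM with 10HDA. It was higher with 10HDA in culture 1 and lower in cultures 3 and 4, and the low vehicle value of culture 1 made the groups overlap. Its log2 fold change was -0.16 ± 0.14 (SE; 95% interval -0.47 to 0.15, adjusted p = 0.70). It was -0.29 without the vehicle library of culture 1, -0.071 without that of culture 3 and -0.043 without that of culture 4.

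Nlgn2, at chr11:69823122-69837784 on the minus strand, had 441, 456 and 490 CPM with vehicle and 422, 448 and 422 CPM with 10HDA. All 3 cultures were lower with 10HDA (2 of 3 by library size alone), yet the 10HDA library of culture 3 exceeded the vehicle library of culture 1. The log2 fold change was -0.10 ± 0.095 (SE; 95% interval -0.31 to 0.11, adjusted p = 0.71), and -0.040 without the vehicle library of culture 4.

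Nlgn3, on the X chromosome at chrX:101299168-101325963 (plus strand), had 133, 140 and 119 CPM with vehicle. Its 10HDA libraries were close to each other at 123, 123 and 122 CPM, inside the range of the vehicle libraries. The log2 fold change was -0.090 ± 0.096 (SE; 95% interval -0.30 to 0.12, adjusted p = 0.75), and it ranged from -0.014 without the vehicle library of culture 3 to -0.14 without that of culture 4. None of the 3 neuroligins was called with culture as a block (adjusted p of 0.49, 0.59 and 0.66).

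The log2 ratio of Nlgn1, the excitatory neuroligin, to Nlgn2, the inhibitory one, averaged -2.75 ± 0.24 (SD, n = 3) with vehicle and -2.78 ± 0.11 with 10HDA. The difference of -0.037 was smaller than the spread between libraries (two-sided exact permutation test, p = 0.8). Its sign was not the same in all cultures, at 0.18, -0.27 and -0.025 in cultures 1, 3 and 4, and the difference turned to 0.046 and 0.020 without the vehicle library of culture 3 or of culture 4.

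Among the LRRTMs, which bind neurexins from the postsynaptic side, Lrrtm3 differed most. It lies at chr10:63928472-64090277 on the minus strand and had 20.3, 21.2 and 21.9 CPM with vehicle against 14.7, 17.5 and 16.8 CPM with 10HDA. The groups did not overlap, and the values rest on 150 to 274 counts per library. The fitted level with 10HDA was 0.773 times that with vehicle, a log2 fold change of -0.37 ± 0.13 (SE; 95% interval -0.65 to -0.090), with an adjusted p of 0.37 in the edgeR fit without a culture term. With culture as a block the adjusted p was 0.074, and the differences within cultures 1, 3 and 4 were -0.46, -0.28 and -0.38. The blocked call was lost without culture 1 (log2 fold change -0.31, adjusted p = 0.27) and without culture 4 (-0.36, adjusted p = 0.38). It was also lost, narrowly, with a filter of 1 CPM (-0.36, adjusted p = 0.101) and by library size alone (-0.30, adjusted p = 0.15). The blocked call was kept without culture 3 (adjusted p = 0.059) and with DESeq2 size factors (adjusted p = 0.085).

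Lrrtm1, at chr6:77242689-77257791 on the plus strand, showed little spread within a treatment. Vehicle libraries had 69.8, 65.4 and 69.8 CPM and 10HDA libraries had 58.3, 56.8 and 62.5 CPM. All 10HDA libraries were below all vehicle libraries, with log2 differences of -0.26, -0.20 and -0.16 in cultures 1, 3 and 4. The fold change of -0.21 ± 0.097 (SE; 95% interval -0.42 to 0.0048) had an adjusted p of 0.50, and an adjusted p of 0.24 with culture as a block.

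Lrrtm2, a gene of 6.0 kb at chr18:35209003-35215024 on the minus strand, had 36.1, 45.9 and 44.6 CPM with vehicle and 33.7, 31.0 and 43.2 CPM with 10HDA. The groups overlapped, and culture 3 carried most of the difference, with -0.57 on the log2 scale against -0.098 and -0.047 in cultures 1 and 4. The fold change was -0.24 ± 0.15 (SE; 95% interval -0.56 to 0.084, adjusted p = 0.59; 0.23 with culture as a block), and it was -0.39 without the 10HDA library of culture 4 and -0.072 without culture 3.

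Lrrtm4, at chr6:80018877-80810143 on the plus strand, was too low for the test, with 8.97, 9.67 and 6.03 CPM with vehicle and 9.39, 8.70 and 6.50 CPM with 10HDA. Both libraries of culture 4 were the lowest, at 71 and 58 counts. When the filter was set to 1 CPM, the log2 fold change was 0.017 ± 0.21 (SE, adjusted p = 0.98). That fit called 0.509% of 15311 genes, and 7.5% with culture as a block. With the block the Lrrtm4 fold change was 0.0082 ± 0.16 (SE).

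**Figure D3:**
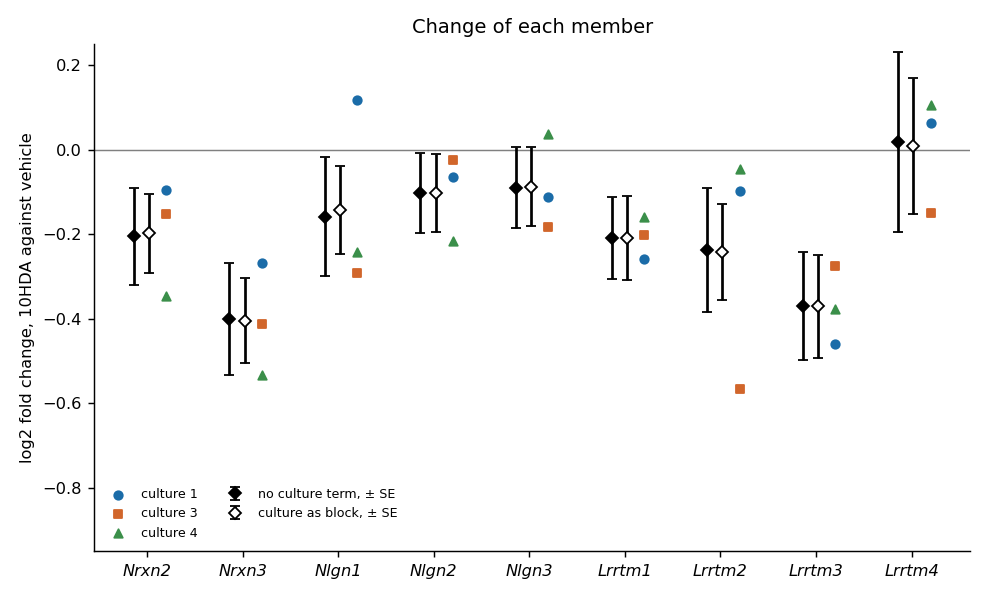
Log2 fold change of each member, 10HDA against vehicle, fitted without a culture term (filled diamonds) and with culture as a block (open diamonds), each ± SE, beside the differences within cultures 1, 3 and 4. Both fits used a filter of 10 CPM except for Lrrtm4 (1 CPM). The fitted values of the 8 other members lie below 0, with those of Nrxn3 and Lrrtm3 lowest, while some differences within a culture lie above 0.

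Lrrtm1, Lrrtm2 and Lrrtm3 lie inside the alpha-catenin genes Ctnna2, Ctnna1 and Ctnna3, on the opposite strand, and only Lrrtm2 shares annotated exon bases with its host (95). Alpha-catenins link cadherins to actin. Ctnna2, the neuronal form, had 216 ± 19.3 CPM (SD, n = 3) with vehicle and 206 ± 9.17 with 10HDA, a log2 fold change of -0.072 (adjusted p = 0.81). Ctnna1 had 47.9 ± 4.48 and 44.7 ± 6.29 CPM, a log2 fold change of -0.10 (adjusted p = 0.79). Ctnna3 held only 1 to 6 counts per library and was not tested, while Lrrtm3 inside it held 150 to 274.

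Promoter sequence was at hand in RefSeq (GRCm38.p6) for 6 of the 9 members, as 10 promoters of 250 bases before a start. Those of the 3 members whose treatments did not overlap after TMM scaling are shown, chosen after their values were seen: Lrrtm1 at chr6:77242227-77242476 (plus strand), Lrrtm3 at chr10:64090256-64090505 (minus strand) and, for Nrxn3, the start farthest downstream, at chr12:89812233-89812482 (plus strand). Capitals in Lrrtm3 mark the letters GGTCA on the opposite strand, the core of an estrogen response element, starting 179 bases before the RefSeq start.
Lrrtm1: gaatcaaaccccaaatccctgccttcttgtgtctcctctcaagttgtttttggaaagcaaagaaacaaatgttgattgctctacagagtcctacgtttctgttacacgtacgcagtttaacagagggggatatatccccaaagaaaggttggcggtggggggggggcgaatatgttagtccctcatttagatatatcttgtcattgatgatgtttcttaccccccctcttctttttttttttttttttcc
Lrrtm3: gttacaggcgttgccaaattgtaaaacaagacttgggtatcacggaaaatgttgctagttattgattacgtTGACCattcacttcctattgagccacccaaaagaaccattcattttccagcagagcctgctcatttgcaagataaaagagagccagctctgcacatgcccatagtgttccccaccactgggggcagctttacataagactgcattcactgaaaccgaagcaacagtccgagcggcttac
Nrxn3: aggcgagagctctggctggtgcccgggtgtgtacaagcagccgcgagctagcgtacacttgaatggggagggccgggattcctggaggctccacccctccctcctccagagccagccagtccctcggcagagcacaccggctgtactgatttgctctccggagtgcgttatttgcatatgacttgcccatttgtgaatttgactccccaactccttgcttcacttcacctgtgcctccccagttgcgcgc

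Letters were searched on both strands, because the study considered estrogen receptors. The full element, GGTCA and TGACC with 3 bases between them, was in 0 of the 10 member promoters and in 0.064% of 32851 promoters of the same length. Its core GGTCA, which is part of it, was in 1 of the 10 (Lrrtm3) against 35.2% of all. The cAMP response element TGACGTCA was in 0 of 10 against 1.55%. GGGCGG was in 1 (Nlgn2) against 32.7%, CCAAT in 1 (Nlgn1) against 33.9% and TATAAA in 1 (Lrrtm4) against 12.4%. Among the promoters shown, that of Nrxn3 held 12 CG pairs, that of Lrrtm3 held 6 and that of Lrrtm1 held 5. The other Nrxn3 promoters, not shown, held 2 and 5, and the median of all promoters was 6.

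Partners of these proteins outside the cell had fitted differences in the same direction. Of 20 listed extracellular ligands and modulators 14 were tested, and all 14 had a log2 fold change below 0 (median -0.17), though 8 of 14 did by library size alone, 11 with scaling to the upper quartile and 12 with DESeq2 size factors. None was past the threshold (4 at an unadjusted p under 0.05). Nxph3, a secreted neurexophilin that binds alpha-neurexins, had 22.2 ± 5.56 CPM (SD, n = 3) with vehicle and 13.7 ± 5.21 with 10HDA, a log2 fold change of -0.67 (adjusted p = 0.43; 0.0011 with culture as a block). Clstn3, the calsyntenin that binds neurexins from the postsynaptic side, had 197 ± 9.71 and 171 ± 5.25 CPM (log2 fold change -0.21, adjusted p = 0.47). With the block, 2 of the 14 were lower past the threshold, Nxph3 and Sparcl1, the latter a secreted protein of astrocytes that bridges neurexins and neuroligins (-0.28, adjusted p = 0.076).

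Other synaptic adhesion organisers had a median of -0.15 over 34 tested of 35 listed, with 26 below 0 and 8 above (22 and 12 by library size alone). None was called without a culture term (2 at an unadjusted p under 0.05), and 5 were lower with the block: Lrrc4c, Cadm1, Adgrl3, Tenm2 and Tenm3. Cadm1, a homophilic adhesion molecule of the immunoglobulin family, had 551 ± 42.4 CPM (SD, n = 3) with vehicle and 440 ± 17.2 with 10HDA (log2 fold change -0.32, adjusted p = 0.30; 0.042 with the block). Lrrc4c, the netrin-G ligand, had 68.9 ± 6.81 and 52.5 ± 8.95 CPM (-0.40, adjusted p = 0.36; 0.017 with the block). Leaving out the vehicle library of culture 4 brought the median to -0.021.

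Intracellular partners, the scaffold and adaptor proteins that bind the tails shown above, had a median of -0.16 over 19 tested genes, with 15 below 0 and 4 above and none called (2 at an unadjusted p under 0.05). Leaving out the culture 4 vehicle library brought their median to -0.031, leaving out the culture 3 10HDA library to -0.088, and scaling by library size alone to -0.077. With the block 1 was lower and 1 was higher. The lower was Apba1, the adaptor Mint1, with 306 ± 41.9 CPM (SD, n = 3) with vehicle and 237 ± 41.5 with 10HDA (log2 fold change -0.37, adjusted p = 0.42; 0.014 with the block). The higher was Sdcbp, the PDZ protein syntenin, with 43.8 ± 9.75 and 61.1 ± 11.6 CPM (0.48, adjusted p = 0.40; 0.0039 with the block).

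The proteases that shed these proteins from the membrane were the only pathway list of which no tested gene had a fold change below 0. All 7 tested of 9 listed lay above it (median 0.080), and none was called with or without the block (0 at an unadjusted p under 0.05). By culture their median was 0.054, -0.0071 and 0.12 in cultures 1, 3 and 4. Only 1 of the 7 was higher with 10HDA in 3 of 3 cultures, against 18.6% of all genes. The smallest p belonged to the gamma-secretase subunits Psen2, with 16.1 ± 2.78 CPM (SD, n = 3) with vehicle and 18.7 ± 0.64 with 10HDA (log2 fold change 0.22, adjusted p = 0.63), and Aph1a, with 33.0 ± 5.42 and 38.1 ± 7.91 CPM (0.21, adjusted p = 0.67).

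The regulators of neurexin splicing had a median of -0.060 over 10 tested genes, 8 below 0 and 2 above, and of 0.015 when scaled by library size alone, with 4 below and 6 above. None was called (1 at an unadjusted p under 0.05). Rbfox3, known as the neuronal nuclear antigen NeuN, had 110 ± 14 CPM (SD, n = 3) with vehicle and 82.3 ± 7.79 with 10HDA (log2 fold change -0.42, adjusted p = 0.25), and was the 1 regulator called with the block (adjusted p = 0.015). Khdrbs3, which acts on an alternative exon of neurexins, had 194 ± 8.08 and 179 ± 13.7 CPM (-0.12, adjusted p = 0.67). Counts per gene do not show which neurexin exons were used.

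**Figure D4:**
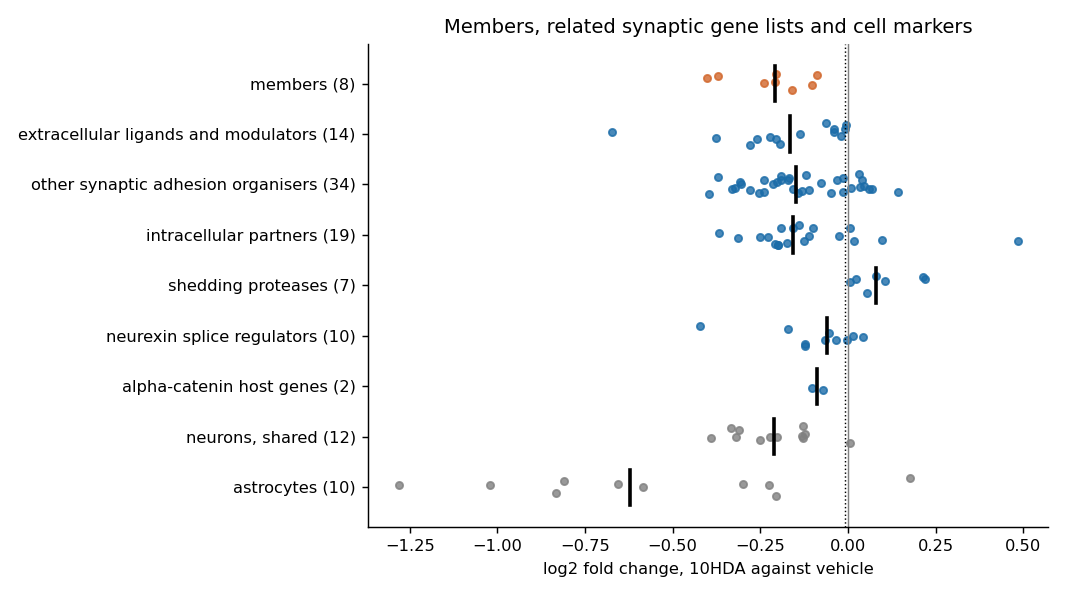
Log2 fold change, 10HDA against vehicle, of each tested gene in the member list, in the lists of partners and related genes and in the neuronal and astrocytic marker lists, with numbers of genes in parentheses. Points are genes, thick bars are medians and the dotted line is the median of all tested genes, and the members' median of -0.21 lies beside that of the shared neuronal markers.

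Neuronal markers had fitted differences in the same direction. Of the 12 shared neuronal markers 11 were below 0 and 1 was above, and their median was -0.21 on the log2 scale. None was called without a culture term (4 at an unadjusted p under 0.05), and 4 were lower with the block, the synaptic proteins Snap25, Syt1 and Syn1 and the growth cone protein Gap43. Summed, the 12 held 9872 to 10450 CPM in vehicle libraries and 8254 to 9270 CPM in 10HDA libraries, without overlap. Map2, a protein of dendrites, had 1697 ± 225 CPM (SD, n = 3) with 10HDA against the 1979 ± 299 with vehicle, and Dcx, a marker of young neurons, had 1681 ± 218 CPM with vehicle and 1535 ± 190 with 10HDA. Set against these markers, the members' treatments overlapped: the sum of the 9 genes was 14.4, 15.6 and 15.9% of the summed neuronal markers in vehicle cultures 1, 3 and 4, and 15.6, 17.0 and 14.9% with 10HDA. Per 1000 CPM of neuronal markers, Nrxn3 had 8.28, 10.4 and 8.07 CPM with vehicle and 7.98, 9.41 and 6.28 with 10HDA. Lrrtm3 had 2.06, 2.12 and 2.10 against 1.74, 2.12 and 1.81. Lrrtm1 had 7.07, 6.55 and 6.69 against 6.87, 6.89 and 6.74. All 9 members overlapped on this scale, which was added after the data were seen. Within cultures, Nrxn3 and Lrrtm3 were lower with 10HDA in 3 of 3 on this scale, Nlgn3 and Lrrtm4 were higher in 3 of 3, and the other 5 were mixed. Shares over all genes were not computed on this scale, and those given above for scaled CPM do not apply to it.

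The other cell type lists differed in their medians. Astrocyte markers had the lowest of the lists with more than 1 tested gene, at -0.62 over 10 tested of 11, with 9 below 0 and 5 called lower (Aldoc, Gfap, Aldh1l1, Clu and Slco1c1), and summed to 1296 to 1578 CPM with vehicle and 981 to 1201 with 10HDA. Their 2 most abundant genes, the glutamate transporters Slc1a3 and Slc1a2, were not among those called (adjusted p of 0.54 and 0.67). Oligodendrocyte lineage markers had -0.49 over 6 of 7 tested, with Cspg4 called lower and the most abundant, Olig1 and Olig2, at 0.059 and 0.24 (adjusted p of 0.88 and 0.46). Interneuron markers had -0.33 over 11 genes, 10 below 0 and 1 called, Reln, with Gad1 at 0.036 and Dlx1 at -0.38 (adjusted p of 0.95 and 0.43). Excitatory neuron markers had -0.18 over 9, with 0 called (2 at an unadjusted p under 0.05), and Neurod6 at -0.15 and Neurod2 at 0.16 (adjusted p of 0.76 and 0.58).

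Radial glia markers had a median of -0.091 over 6 of 7 and markers of dividing cells had 0.13 over 3 of 4, with 0 called in each (2 and 0 at an unadjusted p under 0.05). Among them Fabp7 and Vim had log2 fold changes of -0.41 and 0.32 (adjusted p of 0.31 for each), and Mki67 and Top2a had -0.19 and 0.13 (adjusted p of 0.75 and 0.72). Of 6 endothelial and pericyte markers only Pdgfrb reached the level for testing and was called lower (log2 fold change -1.07), while Kdr had 1.08 ± 0.23 CPM (SD, n = 3) with vehicle and 0.63 ± 0.10 with 10HDA. None of 4 fibroblast markers was tested, and of these Dcn had 9.18 ± 0.23 and 4.49 ± 0.45 CPM and Col1a1 had 1.08 ± 0.66 and 1.04 ± 0.23. The highest microglial markers were Aif1 at 0.48 ± 0.14 and 0.44 ± 0.26 CPM and C1qa at 0.14 ± 0.058 and 0.16 ± 0.17. The part of these lists in the members' values was not tested.

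The genes whose levels over the 6 libraries were most like the members were found from the mean of the members' standardised log2 CPM, which was 0.040, 0.91 and 0.90 in vehicle cultures 1, 3 and 4 and -0.91, -0.51 and -0.43 with 10HDA. The vehicle library of culture 1 was thus the lowest of its treatment, and all 10HDA libraries were below it. Nearest were B3gat2, a glucuronyltransferase (Pearson's r = 0.997), Chst3, a chondroitin sulfotransferase (0.997), F730043M19Rik (0.996), Tanc1, a postsynaptic scaffold protein (0.995), and Specc1 (0.989). The 6 points share their libraries with the members' values, so these correlations describe likeness only. Their log2 fold changes were -0.31 to -0.40, with adjusted p of 0.32 to 0.49.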

How the data were processed

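The deposited table holds raw read counts per gene for 6 libraries, made by the authors and not normalized. According to the methods and the labels, reads of 50 bases were aligned untrimmed to mm10 (GRCm38) with Subjunc of Subread 1.4.4 after FastQC and counted with featureCounts on Gencode gene models, and the study used edgeR 3.4.2 in R 3.0.2. The number of further sample columns was 0.

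Symbols, positions and transcripts came from GENCODE release M21 (GRCm38), which matched 98% of identifiers (42462 of 43346). A gene was kept where 3 or more libraries reached 10 CPM (10520 genes). Counts were TMM-scaled, and treatments were compared by the quasi-likelihood test of edgeR 4.0.16 under R 4.3.3, with p-values adjusted over all genes tested by the Benjamini-Hochberg method and a threshold of 0.1. No culture term was used, as the methods of the study name none. SEs were derived from the F statistic, and intervals use 11 degrees of freedom. Levels in CPM are after TMM scaling unless given by unscaled totals or by library size alone. CPM per kilobase use the gene lengths of the deposited table. Promoters came from RefSeq (GRCm38.p6). The scripts were tested on simulated data.

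Culture pairs the libraries by the labels. As a check, deviations from the treatment means correlated across genes at 0.368, 0.235 and 0.616 within cultures 1, 3 and 4, and at -0.449 to 0.183 between cultures. The block lowered the common biological coefficient of variation from 0.116 to 0.0849.

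The members and all gene lists were chosen with earlier results of these data known. Named are all members, the genes of each pathway list past the threshold or else the 2 with the smallest p, the alpha-catenin host genes, the 2 most abundant markers of each cell type list, and the 5 genes most like the members. Further genes called with culture as a block, and the cell type markers called, were named after their values were seen. Alternatives were other scalings, DESeq2 1.42.0, limma-voom (limma 3.58.1), other filters and thresholds, culture as a block and libraries or cultures left out. That replicates came from separate cultures is given by the labels.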

Additional observations from a re-analysis of the deposited data

How the results depend on the processing

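The fitted log2 fold change stayed below 0 for each of the 8 tested members under all 23 alternatives, with ranges of -0.51 to -0.27 for Nrxn3, -0.42 to -0.29 for Lrrtm3 and -0.27 to -0.084 for Nrxn2, while adjusted p reached 1.00 for each. Members called numbered 0, but 1 without a filter on low counts (Nrxn3) and 2 with culture as a block. Blocked fits, added after seeing the data except for the plain block, called 1, 2 and 0 members without cultures 1, 3 and 4, 1 with library size alone, 2 with DESeq2 size factors and 1 with a filter of 1 CPM. Pairing by culture changed no other member's call. All genes called numbered 66, against 170 with DESeq2, 636 without a filter, 43 at a threshold of 0.05 and 945 with the block, which gave 869, 1089 and 358 without cultures 1, 3 and 4, 1265 with library size alone, 943 with DESeq2 size factors and 1148 with the 1 CPM filter. Leaving out libraries or cultures gave 0 to 355 genes in edgeR (453 at an unadjusted p under 0.05 where 0 were called without the 10HDA library of culture 1, 689 without culture 3). Calls were 21 higher and 45 lower, but 21 and 24 with library size alone, and 949 and 316 with the block as well. Library size alone, which shifted the median of all genes to 0.067, gave medians of -0.13 for the members, -0.089 for extracellular ligands, 0.15 for proteases and 0.015 for splice regulators, and with the block -0.13, -0.093, 0.15 and 0.019. Leaving out libraries or cultures gave -0.22 to -0.11 for extracellular ligands (-0.11 with the block and without culture 4), -0.19 to -0.021 for adhesion organisers, -0.20 to -0.031 for intracellular partners, 0.029 to 0.16 for proteases and -0.11 to -0.020 for splice regulators. The ratio of Nrxn3 to Nrxn2 ranged from -0.35 to -0.079. The ratio of Nlgn1 to Nlgn2 ranged from -0.17 to 0.046 (0.046 and 0.020 without the vehicle library of culture 3 or 4). Lrrtm4 ranged from -0.16 to 0.15 (-0.16, -0.097, -0.036, -0.028 and -0.049 without vehicle library 4, 10HDA library 1, 10HDA library 3, culture 1 and culture 4). Causes were not tested. Lrrtm4, at 58 to 125 counts per library, had the widest SE without the block.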
